A study of Mus musculus with 70 samples.

Results

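The suppressor of cytokine signalling (SOCS) family comprises 8 genes, Socs1 to Socs7 and Cish, which were followed in 8 mouse cancer cell lines kept with interferon gamma (IFNg), interferon beta (IFNb) or neither. The members were chosen by their symbols, and are 8 of the 35197 genes in the deposited table. All 8 passed the filter on low counts and were among the 16147 genes tested. RNA was sequenced in 70 libraries, taken after 48 h with 100 ng/mL IFNg (23 libraries), after 48 h with 1000 activity units/mL IFNb (24 libraries), or from unstimulated cells (NS, 23 libraries). The lines were the melanomas B16.1 and YUMMER1.7, the colorectal lines CT26.2 and MC38.7, the pancreatic lines KPC.2 and Panc02.3, the lung line LLC and the renal line Renca. CT26.2 and Renca have a BALB/c background and the other 6 lines a C57BL/6 background. Line and treatment gave 24 groups of 3 libraries, except LLC with IFNg and unstimulated Renca, which held 2 each. The labels name no gene edit or other agent in any group, and each line stands for 1 tumour model kept in culture.

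SOCS proteins are feedback inhibitors of cytokine receptors. A receptor activates JAK kinases, these phosphorylate STAT factors, the STATs switch on SOCS genes, and the SOCS proteins then bind the receptor or the kinase through an SH2 domain. A second domain, the SOCS box, joins elongins and a cullin to form a ubiquitin ligase. IFNg acts mainly through GAS elements, which STAT dimers read, while IFNb acts mainly through ISRE elements, which a complex with STAT2 and IRF9 reads. Socs1 and Socs3 inhibit JAK kinases directly, Socs1 at the interferon receptors and Socs3 foremost at gp130, the shared receptor of the IL-6 family. Cish and Socs2 are STAT5 targets that dampen growth hormone, prolactin and related receptors. Socs4 and Socs5 are known for their action on the EGF receptor, and Socs6 and Socs7 for theirs on insulin and other receptor tyrosine kinase signalling.

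Library totals ran from 668355 counts (KPC.2 with IFNb, replicate 3) to 28550816, with a median of 8644887. No label states that replicates came from separate cultures, and the p-values may therefore rest on technical spread alone. Marker genes fitted some labels and not others in unstimulated cells. The 7 melanocyte markers summed to 20192 CPM (counts scaled by library size) in B16.1 and to 21.5 CPM in YUMMER1.7, where Mlana had no count. All 4 lung markers were at or under 3 counts in LLC, and the 4 colorectal markers summed to 4.27 CPM in CT26.2 and 0.741 CPM in MC38.7. Pancreatic markers summed to 122 CPM in KPC.2 and 204 CPM in Panc02.3. They also summed to 139 CPM in MC38.7 and 149 CPM in YUMMER1.7, there almost wholly from Sox9. The colorectal markers were highest in KPC.2, a pancreatic line, at 506 CPM. Renal markers summed to 269.9 CPM in Renca, and to 72.4 CPM in Panc02.3 and 53.1 CPM in KPC.2. The 6 leukocyte markers summed to between 0.0934 and 7.89 CPM over the 8 lines.

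Start regions of the members whose results are described first are shown here because they hold letters that match interferon and STAT elements. They are from RefSeq on GRCm38.p6, in a set of 300-base start regions. Of the members, those of 4 were searched, Socs1, Socs3, Socs4 and Cish, and no match is reported for the others. The motifs searched on both strands were TTCNNNGAA, the core of a GAS element, and the core of an ISRE, which is GAAA, any 2 bases, and GAAA again. Positions count from the RefSeq start, with 1 as the first transcribed base and -1 as the base before it, and capitals mark the matches.
Socs1, chr16:10785537-10785656, minus strand, positions -120 to -1: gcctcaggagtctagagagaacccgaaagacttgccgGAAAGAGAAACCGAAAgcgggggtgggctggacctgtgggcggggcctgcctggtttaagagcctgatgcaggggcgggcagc
Socs3, chr11:117969452-117969571, minus strand, positions -205 to -86: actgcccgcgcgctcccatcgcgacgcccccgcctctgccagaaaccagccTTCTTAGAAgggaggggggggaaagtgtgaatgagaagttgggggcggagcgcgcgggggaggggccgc
Cish, chr9:107296654-107296683, plus strand, positions -5 to 25: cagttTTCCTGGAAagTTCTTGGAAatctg
The Socs1 stretch lies just outside the annotated gene and holds a pair of overlapping ISRE core matches, at -83 to -74 and -77 to -68. The Socs3 stretch lies in an intron of the transcript Socs3-202 and holds TTCTTAGAA at -154 to -146. In Cish, TTCCTGGAA at 1 to 9 and TTCTTGGAA at 12 to 20 lie in the first exon of Cish-201, in its 5′ UTR. The Socs4 start region held no match to either motif. Over all 32851 start regions of this length, 8.30% held TTCNNNGAA and 0.457% held it at least 2 times, while 3.44% held the ISRE core and 0.225% held it at least 2 times. A match is a description of the letters and was not tested for binding.

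**Figure D1:**
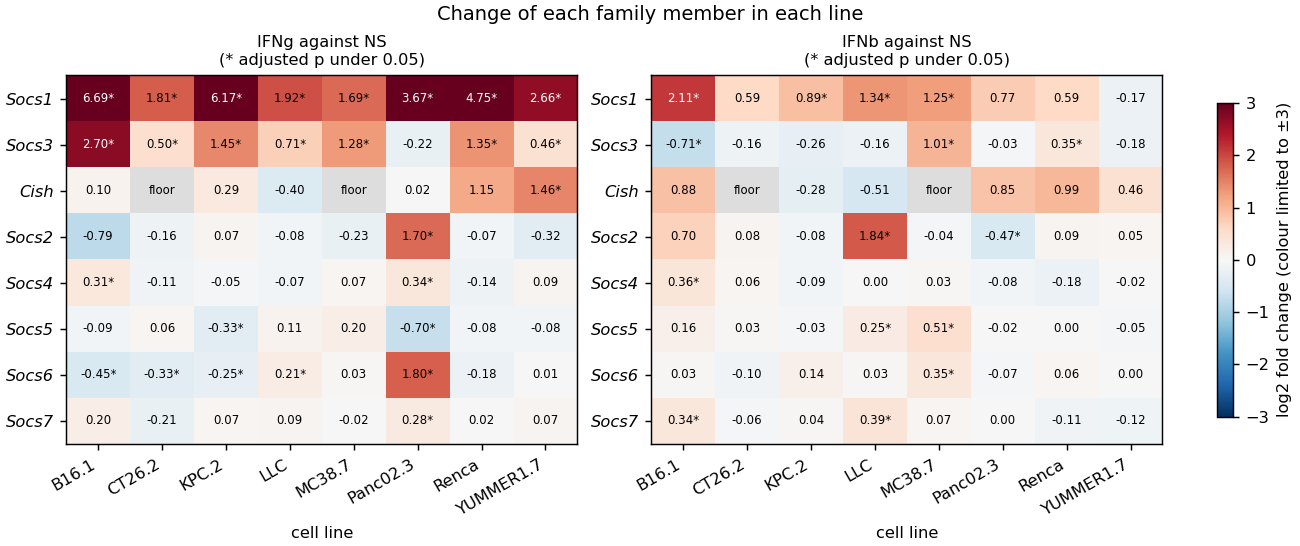
Change of each family member (rows) in each line (columns), as log2 fold change of IFNg over NS (left) and IFNb over NS (right), with asterisks at an adjusted p under 0.05. Grey cells marked floor are Cish in CT26.2 and MC38.7, where all groups had at most 3 counts. Socs1 rose with IFNg in all 8 columns and Socs3 in 7, while with IFNg Socs6 was called in 5 columns, Socs4 and Socs5 in 2 each, and Cish, Socs2 and Socs7 in 1 each.

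After 48 h with IFNg, 22 of the 64 pairs of member and line rose and 5 fell, and Socs1 (8 lines) and Socs3 (7 lines) made up 15 of the 22. With IFNb 13 pairs rose and 2 fell. A member is said to have risen or fallen where edgeR's quasi-likelihood test, adjusted over all genes of that comparison, gave p under 0.05. For IFNg against NS, the number of the 8 members called was 4 in B16.1, 3 in CT26.2, 4 in KPC.2, 3 in LLC, 2 in MC38.7, 6 in Panc02.3, 2 in Renca and 3 in YUMMER1.7. The share of all genes called in that comparison was 54.1% in B16.1, 8.84% in CT26.2, 29.6% in KPC.2, 11.2% in LLC, 4.77% in MC38.7, 54.8% in Panc02.3, 11.2% in Renca and 20.8% in YUMMER1.7. For IFNb against NS, 4 members were called in each of B16.1, LLC and MC38.7, 1 in each of KPC.2, Panc02.3 and Renca, and none in CT26.2 or YUMMER1.7 by edgeR, where 1 each had an unadjusted p under 0.05 and DESeq2 called 1 in CT26.2 and none in YUMMER1.7. The share of all genes called with IFNb was 28.9% in B16.1, 2.90% in CT26.2, 4.45% in KPC.2, 38.6% in LLC, 30.6% in MC38.7, 6.16% in Panc02.3, 13.9% in Renca and 1.36% in YUMMER1.7. The member counts in B16.1 and Panc02.3 with IFNg stand beside the highest of these shares.

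Socs1, which binds JAK1, JAK2 and TYK2 and whose loss leaves mice with uncontrolled IFNg signalling, was higher in every IFNg library than in every NS library of its line. The gene lies on the minus strand of chromosome 16 (GRCm38, 10782240 to 10785536). In KPC.2, Socs1 had 338, 342 and 319.5 CPM with IFNg and 5.15, 3.69 and 5.16 CPM in NS cells. B16.1 libraries held 37.5, 38.9 and 47.4 CPM of Socs1 with IFNg and 0.374, 0.739 and 0.104 CPM in NS cells, and these NS values rest on 3, 6 and 1 counts. These were the widest separations, with log2 fold changes of 6.69 ± 0.25 in B16.1 (SE, adjusted p = 7.4e-32) and 6.17 ± 0.14 (adjusted p = 5.1e-42) in KPC.2. The SE is worked back from the F value. For B16.1 it can be too small, given so few NS counts. Renca cells had 64.3, 64.0 and 62.7 CPM with IFNg and 2.39 and 2.29 CPM unstimulated, a change of 4.75 ± 0.18 (adjusted p = 4.2e-30). Panc02.3 cells had 20.5, 17.8 and 19.1 CPM with IFNg and 1.78, 0.827 and 1.66 CPM unstimulated, a change of 3.67 ± 0.25 (adjusted p = 8.9e-20). In each of these 4 lines the unstimulated level was under 6 CPM and the groups did not overlap.

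The other 4 lines began higher and changed less. YUMMER1.7 had 124, 119 and 131 CPM of Socs1 with IFNg and 21.4, 18.0 and 19.4 CPM in NS cells, a change of 2.66 ± 0.11. LLC had 44.4 and 45.1 CPM with IFNg and 9.59, 11 and 14.6 CPM in NS cells, a change of 1.92 ± 0.11. The colorectal lines had the smallest changes. CT26.2 had 32.1, 31.0 and 27.3 CPM with IFNg and 10.3, 6.07 and 7.80 CPM in NS cells, a change of 1.81 ± 0.18, and MC38.7 had 22.0, 24.4 and 21.7 CPM with IFNg and 6.60, 6.82 and 7.67 CPM in NS cells, a change of 1.69 ± 0.13. Here too no IFNg library overlapped an NS library. In these bulk libraries, a higher level in every cell and more cells with the transcript cannot be told apart.

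IFNb gave smaller changes of Socs1. The level rose in B16.1 by 2.11 ± 0.52 (adjusted p = 0.0011), in LLC by 1.34 ± 0.12 (adjusted p = 7.4e-15), in MC38.7 by 1.25 ± 0.14 (adjusted p = 2.6e-10) and in KPC.2 by 0.89 ± 0.28 (adjusted p = 0.048). LLC cells had 44.4 and 45.1 CPM with IFNg and 29.4, 28.2 and 31.2 CPM with IFNb, and MC38.7 cells had 22.0, 24.4 and 21.7 CPM with IFNg and 16.5, 16.9 and 16.4 CPM with IFNb. KPC.2 cells had 10.7, 6.42 and 11.2 CPM with IFNb, the last of these from 8 counts in the shallowest library. Without that library the KPC.2 change was 0.85 (adjusted p = 0.092), which did not pass. Leaving out the libraries of 1 replicate number in all lines also ended this call, whichever number it was (adjusted p = 0.5, 0.13 and 0.08). In CT26.2, Panc02.3 and Renca every IFNb library was above every NS library, but the changes of 0.59 ± 0.21, 0.77 ± 0.34 and 0.59 ± 0.28 did not pass the test (adjusted p = 0.14, 0.2 and 0.18), though that of CT26.2 passed in DESeq2 (adjusted p = 0.037). YUMMER1.7 had 12.7, 17.3 and 21.5 CPM with IFNb against 21.4, 18.0 and 19.4 CPM in NS cells, and the groups overlapped (change -0.17 ± 0.13). Set against the mean of the other 7 lines, the IFNb change of Socs1 was lower in YUMMER1.7 (-1.24 ± 0.17, adjusted p = 1.6e-07) and higher in LLC (0.47 ± 0.17, adjusted p = 0.035). Such a departure was called in 11.1% of all gene and line pairs for IFNb.

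The order of the lines by Socs1 level was not the same with IFNg as in NS cells. In NS cells the order was YUMMER1.7, LLC, CT26.2, MC38.7, KPC.2, Renca, Panc02.3 and B16.1, from 19.6 ± 1.73 to 0.406 ± 0.319 CPM (SD, n = 3 each), and neighbours did not differ for CT26.2 and MC38.7 or for Renca and Panc02.3. With IFNg the order was KPC.2, YUMMER1.7, Renca, LLC, B16.1, CT26.2, MC38.7 and Panc02.3, from 333 ± 11.98 to 19.1 ± 1.33 CPM, and neighbours did not differ for LLC and B16.1 or for MC38.7 and Panc02.3. KPC.2 thus led with IFNg and stood behind 4 lines in NS cells. The highest line had 17.4 times the level of the lowest with IFNg and 48.3 times in NS cells. Over all genes and the 28 pairs of lines, 68.1% of pairs differed with IFNg, 67.1% with IFNb and 68.7% in NS cells.

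**Figure D2:**
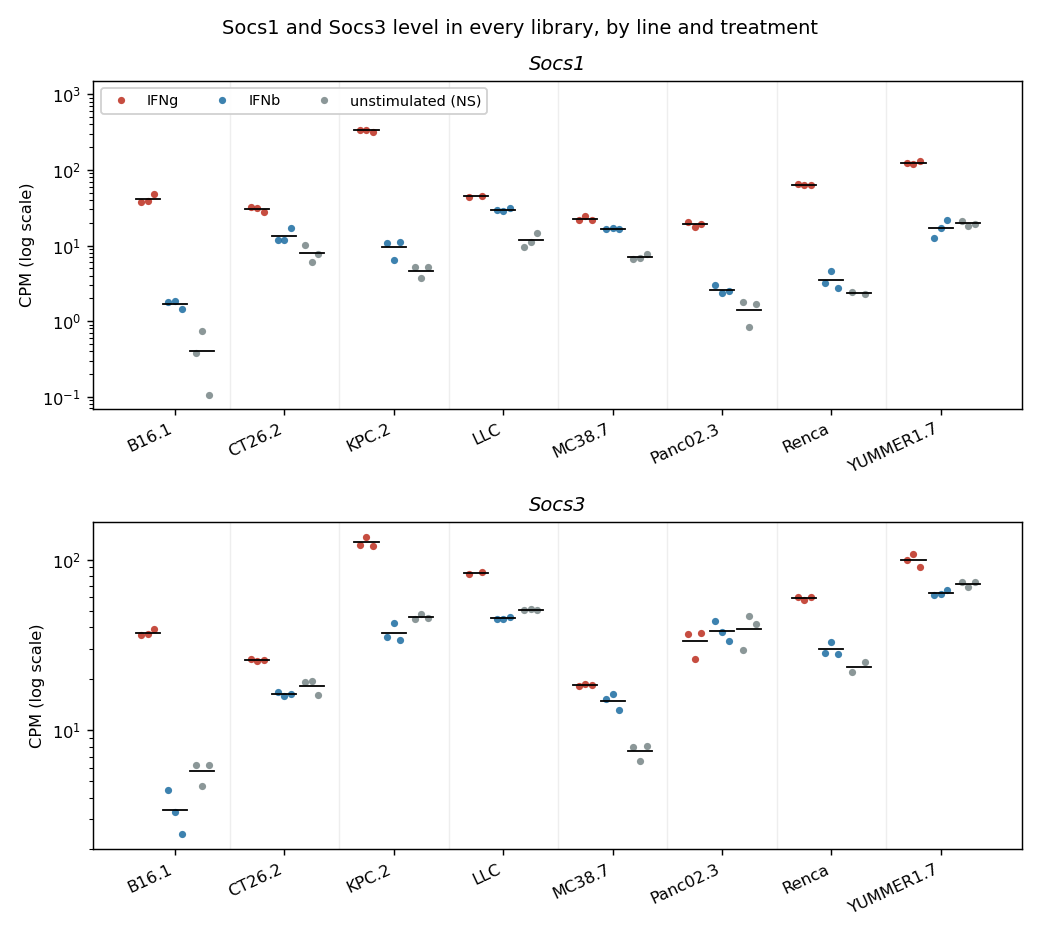
Socs1 (top) and Socs3 (bottom) level in CPM, on log axes, in every library of the 8 lines with IFNg (red), IFNb (blue) or neither (grey), with bars at group means. The Socs1 points of KPC.2 with IFNg sit at 319.5 CPM or more, above all other groups, and the Socs3 points of Panc02.3 overlap between its 3 groups.

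Socs3, the inhibitor of gp130 signalling and a textbook STAT3 target, also rose with IFNg, in 7 of the 8 lines and with a smaller log2 fold change than Socs1 in each of them. The gene lies on the minus strand of chromosome 11 (117966079 to 117970047). B16.1 held 36.2, 36.7 and 39.1 CPM of Socs3 with IFNg and 6.23, 4.68 and 6.25 CPM in NS cells, a change of 2.70 ± 0.13 (adjusted p = 1.6e-25). KPC.2 held 122, 136 and 120.5 CPM with IFNg and 44.9, 47.8 and 45.3 CPM in NS cells, a change of 1.45 ± 0.09 (adjusted p = 2.2e-20). In both lines every IFNg library lay above every NS library. Renca held 60.6, 58.1 and 60.2 CPM with IFNg and 21.9 and 25.1 CPM in NS cells, a change of 1.35 ± 0.11, and MC38.7 held 18.1, 18.7 and 18.4 CPM with IFNg and 7.96, 6.56 and 8.12 CPM in NS cells, a change of 1.28 ± 0.12. Rises of 0.71 ± 0.09 in LLC, 0.50 ± 0.14 in CT26.2 and 0.46 ± 0.08 in YUMMER1.7 followed. All 7 lines had no overlap between their IFNg and NS libraries, and the CT26.2 call was lost in limma-voom (adjusted p = 0.056) and without replicate 3 (adjusted p = 0.24). Panc02.3 stood apart, with 36.4, 26.23 and 37.1 CPM with IFNg and 29.3, 46.5 and 41.6 CPM in NS cells, and its change of -0.22 ± 0.11 did not pass (adjusted p = 0.11), but was called as a fall without replicate 1, at -0.42 (adjusted p = 0.013). Compared with the average of the other 7 lines its change differed by -1.42 ± 0.12 (adjusted p = 1.8e-15), while B16.1 departed upward by 1.91 ± 0.14. Departures under IFNg were called in 22.4% of all gene and line pairs.

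With IFNb, Socs3 rose in 2 lines and fell in 1, and 2 of these 3 calls were lost on leaving out 1 replicate number. MC38.7 rose to 15.3, 16.2 and 13.1 CPM with IFNb, against 7.96, 6.56 and 8.12 CPM in NS cells (change 1.01 ± 0.13, adjusted p = 5.3e-09). Renca rose to 28.5, 32.8 and 27.95 CPM, a change of 0.35 ± 0.11 (adjusted p = 0.028). Its change was 0.20 without replicate 2, and the call was lost without replicate 2 or 3. Each of these runs left 1 NS library of Renca. B16.1 fell to 4.45, 3.31 and 2.44 CPM with IFNb, against 6.23, 4.68 and 6.25 CPM in NS cells (change -0.71 ± 0.22, adjusted p = 0.0089). Without replicate 3 the B16.1 change was -0.47 (adjusted p = 0.27) and was not called. In KPC.2, LLC and YUMMER1.7 all IFNb libraries were below all NS libraries, with changes of -0.26 ± 0.12, -0.16 ± 0.09 and -0.18 ± 0.09 that did not pass, though that of LLC passed with upper quartile scaling (adjusted p = 0.043). In LLC, where Socs1 rose with IFNb, Socs3 had 45.0, 45.0 and 46.3 CPM with IFNb and 50.9, 51.4 and 50.6 CPM in NS cells. On the mean of the 8 lines the IFNb change was -0.02 ± 0.05 (adjusted p = 1), and the changes differed between lines (adjusted p = 7.6e-09).

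NS levels of Socs3 ran from 72.1 ± 2.57 CPM in YUMMER1.7 down through LLC, KPC.2, Panc02.3, Renca, CT26.2 and MC38.7 to 5.72 ± 0.900 CPM in B16.1 (SD, n = 3 each). LLC and KPC.2 were the neighbours that did not differ. With IFNg the order was KPC.2, YUMMER1.7, LLC, Renca, B16.1, Panc02.3, CT26.2 and MC38.7, and B16.1 and Panc02.3 did not differ. The highest line had 6.86 times the lowest with IFNg, 18.7 times with IFNb and 12.6 times in NS cells.

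Cish, the founding STAT5-induced inhibitor of cytokine receptors, was a transcript of low level in most lines. It lies on the plus strand of chromosome 9 (107296026 to 107302784). KPC.2 was the exception, with 19.7, 20.3 and 21.8 CPM with IFNg, 14.0, 12.4 and 16.9 CPM with IFNb and 15.3, 15.9 and 19.7 CPM in NS cells. There the IFNg change from NS was 0.29 ± 0.28 (adjusted p = 0.49), and 0.35 (adjusted p = 0.029) when KPC.2 was fitted alone. YUMMER1.7 was next, and was the line that edgeR called with all libraries, with 5.54, 6.63 and 4.56 CPM with IFNg, 2.57, 3.11 and 2.73 CPM with IFNb and 2.59, 1.80 and 1.77 CPM in NS cells. The change was 1.46 ± 0.33 (adjusted p = 0.00064), without overlap of the IFNg libraries with either other group, and 1.22 (adjusted p = 0.057) without replicate 2. Renca had 1.41, 2.70 and 2.74 CPM with IFNg, 2.24, 2.56 and 1.51 CPM with IFNb and 1.32 and 0.763 CPM in NS cells, and neither change passed in edgeR (1.15 ± 0.42, adjusted p = 0.069 for IFNg and 0.99 ± 0.43, adjusted p = 0.13 for IFNb). DESeq2 called the IFNg change in Renca, at 1.17 (adjusted p = 0.015), as did edgeR without replicate 1, at 1.36 (adjusted p = 0.019). The highest values in B16.1, LLC and Panc02.3 were 2.003, 0.806 and 2.26 CPM. CT26.2 and MC38.7 had at most 3 counts over each group, so no fold change is given there. In NS cells KPC.2 was above YUMMER1.7, and no further neighbours in the order differed.

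Socs2, which limits growth hormone signalling and whose loss gives overgrown mice, rose with IFNg in 1 line and with IFNb in another. The gene lies on the minus strand of chromosome 10 (95385362 to 95417180). Panc02.3 rose to 119.97, 99.0 and 97.4 CPM with IFNg, against 41.1, 24.3 and 31.6 CPM in NS cells (change 1.703 ± 0.12, adjusted p = 3.4e-19). With IFNb the same line fell by 0.47 ± 0.13 on the fitted log2 scale (adjusted p = 0.012), with 23.8, 22.2 and 25.3 CPM, so that 1 NS library lay within the IFNb range. That call was lost when Panc02.3 was fitted alone (adjusted p = 0.16) and without replicate 1, where the change was -0.25 (adjusted p = 0.42), or replicate 3 (adjusted p = 0.12). In LLC Socs2 rose with IFNb, to 5.80, 7.02 and 6.48 CPM, against 1.68, 1.84 and 1.80 CPM in NS cells (change 1.84 ± 0.21, adjusted p = 6.7e-11). IFNg left LLC at 1.68 and 1.701 CPM, overlapping NS. The other 6 lines had no called change against NS with either cytokine, except B16.1 with IFNg without replicate 2, at -1.48 (adjusted p = 0.042). B16.1, the lowest line, had 0.131, 1.14 and 0.674 CPM with IFNg and 1.34, 1.85 and 2.77 CPM with IFNb, and these groups differed by -1.49 ± 0.43 (adjusted p = 0.0028), a call lost without replicate 3 (adjusted p = 0.11).

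The order of Socs2 in NS cells was Renca, Panc02.3, CT26.2, KPC.2, YUMMER1.7, MC38.7, LLC and B16.1, from 37.4 ± 3.48 CPM (SD, n = 2) to 1.17 ± 0.174 CPM (SD, n = 3). It formed steps, since Renca did not differ from Panc02.3, CT26.2 from KPC.2, YUMMER1.7 from MC38.7, or LLC from B16.1. With IFNg Panc02.3 moved above Renca, and the highest line had 163 times the level of the lowest, against 31.9 times in NS cells. The lowest was B16.1, where the IFNg libraries held 1, 10 and 6 counts of Socs2, so the ratio of 163 is uncertain. Growth hormone receptor (Ghr) transcript averaged 0.123 CPM with IFNg and 0.162 CPM in NS cells of Panc02.3, and 31.6 CPM with IFNb and 27.9 CPM in NS cells of LLC.

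**Figure D3:**
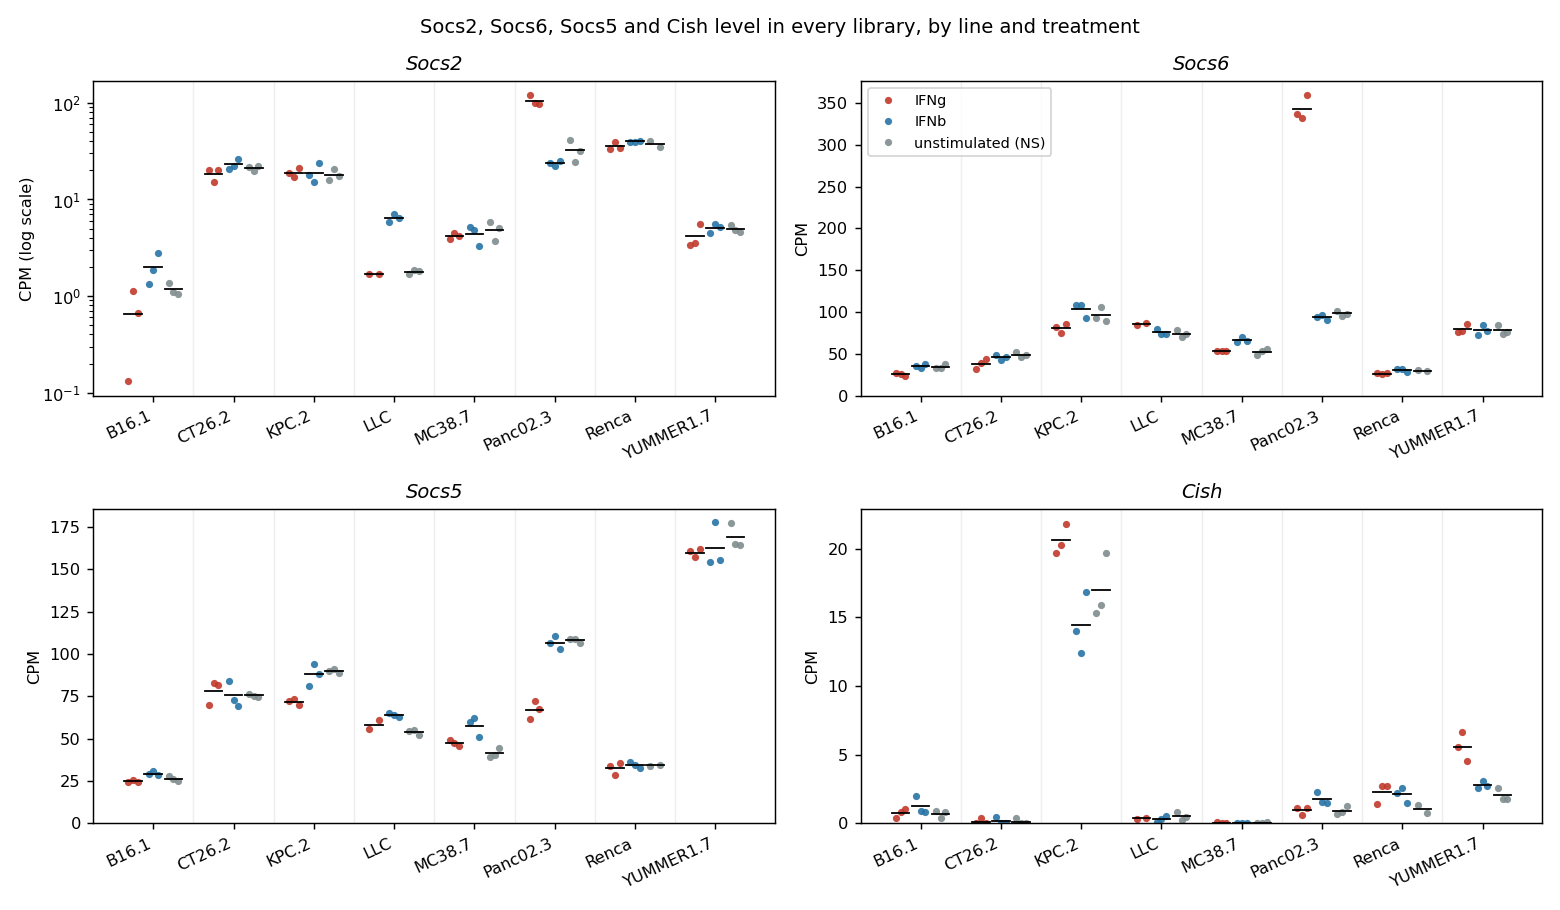
Level in CPM of Socs2 (log axis), Socs6, Socs5 and Cish (linear axes from 0) in every library of the 8 lines with IFNg (red), IFNb (blue) or neither (grey), with bars at group means. With IFNg, Panc02.3 reached 332 to 359 CPM of Socs6 and 97.4 to 119.97 CPM of Socs2, while its Socs5 lay below its other groups.

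Socs6, an inhibitor known for insulin and KIT receptor signalling, rose most in Panc02.3 with IFNg, 3.48-fold. The gene lies on the minus strand of chromosome 18 (88665224 to 88927481). Panc02.3 had 337, 332 and 359 CPM with IFNg, 93.5, 96.9 and 90.6 CPM with IFNb and 101, 95.6 and 98.1 CPM in NS cells. The IFNg change was 1.80 ± 0.07 (adjusted p = 1.8e-31), and its departure from the other 7 lines was 1.93 ± 0.07 (adjusted p = 2.1e-30). LLC rose by 0.21 ± 0.07 (adjusted p = 0.034), a call lost with total count scaling (adjusted p = 0.073) and on leaving out any 1 replicate number. Without replicate 1 or 3, LLC kept 1 IFNg library. Socs6 fell in B16.1 (-0.45 ± 0.09), CT26.2 (-0.33 ± 0.09) and KPC.2 (-0.25 ± 0.07), each without overlap, though the CT26.2 call was lost when that line was fitted alone (adjusted p = 0.15). Without replicate 1 the CT26.2 change was -0.17 (adjusted p = 0.55), and without replicate 2 the KPC.2 change was -0.11 (adjusted p = 0.47), so neither was called. A mean rise of 0.11 ± 0.03 over the 8 lines (adjusted p = 0.00095) combined 2 lines that rose and 3 that fell, and was not called without replicate 3 (adjusted p = 0.12). With IFNb the called change was in MC38.7, at 63.9, 70.2 and 64.9 CPM with IFNb and 48.7, 53.4 and 55.3 CPM in NS cells (change 0.35 ± 0.07, adjusted p = 7.0e-05). Before stimulation Panc02.3 and KPC.2 did not differ at the top of the order, with 98.3 ± 2.88 and 96.2 ± 9.19 CPM (SD, n = 3 each), and Renca was lowest at 29.6 ± 0.629 CPM (SD, n = 2).

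Socs5, which promotes breakdown of the EGF receptor in overexpression studies, fell with IFNg in 2 lines and rose with IFNb in 2 others. The gene lies on the plus strand of chromosome 17 (87107679 to 87137839). With IFNg it fell in Panc02.3, with 61.8, 72.1 and 67.6 CPM against 109, 109 and 106 CPM in NS cells (change -0.70 ± 0.07, adjusted p = 3.2e-12). KPC.2 fell too, with 72.2, 73.5 and 69.7 CPM with IFNg and 90.2, 90.9 and 88.9 CPM in NS cells (change -0.33 ± 0.07, adjusted p = 0.00014). With IFNb it rose in MC38.7, with 59.8, 62.4 and 51.1 CPM against 39.0, 40.4 and 44.5 CPM in NS cells (change 0.51 ± 0.07, adjusted p = 2.6e-08), and in LLC by 0.25 ± 0.07 (adjusted p = 0.0017). None of the 4 called pairs overlapped. With IFNg, limma-voom also called a rise in MC38.7, at 0.20 (adjusted p = 0.042). With IFNb, edgeR with total count scaling also called a rise in B16.1, at 0.24 (adjusted p = 0.026). YUMMER1.7 was the highest line throughout, at 159.9 ± 2.41 CPM with IFNg, 163 ± 13.5 CPM with IFNb and 169 ± 7.28 CPM in NS cells (SD, n = 3 each), and B16.1 the lowest. Every pair of neighbours in the NS order differed, in the sequence YUMMER1.7, Panc02.3, KPC.2, CT26.2, LLC, MC38.7, Renca and B16.1. With IFNg, CT26.2, KPC.2 and Panc02.3 no longer differed as neighbours.

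Socs4, a relative of Socs5, and Socs7, a partner of insulin receptor substrates, were the most even members. Socs4 lies on the plus strand of chromosome 14 (47276931 to 47296102) and Socs7 on that of chromosome 11 (97362551 to 97398542). The highest line had 3.02 times the lowest for Socs4 and 2.75 times for Socs7 in NS cells, and Renca was highest for both. Socs4 rose in B16.1 with both cytokines, with 34.6, 36.8 and 31.0 CPM with IFNg, 33.3, 35.2 and 38.3 CPM with IFNb and 27.2, 27.7 and 27.8 CPM in NS cells. Its changes there were 0.31 ± 0.09 (adjusted p = 0.0019) for IFNg and 0.36 ± 0.09 (adjusted p = 0.00086) for IFNb, and the first was lost without replicate 2 (adjusted p = 0.1). It also rose in Panc02.3 with IFNg by 0.34 ± 0.08 (adjusted p = 0.00047), with 54.8, 69.9 and 69.8 CPM against 48.9, 49.6 and 52.6 CPM in NS cells. Socs7 rose with IFNb in LLC, with 51.8, 46.8 and 49.8 CPM against 37.0, 38.8 and 37.7 CPM in NS cells (change 0.39 ± 0.08, adjusted p = 8.2e-05), and in B16.1 by 0.34 ± 0.09 (adjusted p = 0.004), which stood at an adjusted p of 0.051 without replicate 1. With IFNg it was called in Panc02.3 at 0.28 ± 0.09 (adjusted p = 0.0064), where 63.3, 85.6 and 87.1 CPM with IFNg overlapped 62.8, 59.5 and 67.0 CPM in NS cells, and this call was lost without replicate 2 or 3 (adjusted p = 0.14 and 0.076). All changes of Socs4 and Socs7 against NS lay between -0.21 and 0.39 on the log2 scale.

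Setting the cytokines against each other directly, Socs1 was higher with IFNg than with IFNb in all 8 lines and Socs3 in 7. The difference for Socs1 was 5.28 ± 0.15 in KPC.2, 4.58 ± 0.19 in B16.1, 4.17 ± 0.14 in Renca, 2.90 ± 0.22 in Panc02.3 and 2.83 ± 0.11 in YUMMER1.7. It was far smaller in CT26.2 (1.22 ± 0.18), LLC (0.59 ± 0.11, adjusted p = 1.4e-05) and MC38.7 (0.44 ± 0.11, adjusted p = 0.0017), where the call was lost without replicate 2 (adjusted p = 0.064). For Socs3 the difference ran from 0.27 ± 0.10 (adjusted p = 0.047) in MC38.7, a call lost in DESeq2 (adjusted p = 0.076) and on leaving out any 1 replicate number (adjusted p = 0.14, 0.097 and 0.26), to 3.40 ± 0.15 (adjusted p = 2.3e-27) in B16.1, while Panc02.3 had -0.19 ± 0.12 (adjusted p = 0.18). The Socs3 call in CT26.2 was lost without replicate 3, where the difference was 0.655. Socs5 was lower with IFNg than with IFNb in B16.1, KPC.2, MC38.7 and Panc02.3, between -0.68 ± 0.07 and -0.25 ± 0.09, and higher in none. The B16.1 call was lost without replicate 2 or 3 (adjusted p = 0.058 and 0.056) and that of KPC.2 without replicate 2 (adjusted p = 0.17). DESeq2 also called Socs5 lower in LLC, at -0.17 (adjusted p = 0.043).

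Socs6 was lower with IFNg than with IFNb in B16.1, KPC.2, MC38.7 and Renca, and higher in Panc02.3 (1.87 ± 0.07) and LLC (0.18 ± 0.07, adjusted p = 0.047). The LLC call was lost in DESeq2 (adjusted p = 0.071). Both this call and that of Renca were lost on leaving out any 1 replicate number, though LLC kept 1 IFNg library without replicate 1 or 3. Socs2 was lower with IFNg in LLC (-1.91 ± 0.22, adjusted p = 1.6e-10) and B16.1, and higher in Panc02.3 (2.17 ± 0.12, adjusted p = 8.2e-23). Cish was higher with IFNg in YUMMER1.7 (1.001 ± 0.33, adjusted p = 0.026), a call lost on leaving out any 1 replicate number (adjusted p = 0.082, 0.22 and 0.12). In KPC.2, where every IFNg library lay above every IFNb library, Cish had 0.57 ± 0.30 (adjusted p = 0.2) in edgeR, while DESeq2 called it at 0.57 (adjusted p = 0.04) and limma-voom at 0.60 (adjusted p = 0.036). Socs4 was higher in Panc02.3 (0.42 ± 0.08, adjusted p = 2.5e-05), and Socs7 was lower in LLC (-0.30 ± 0.09, adjusted p = 0.0068) and higher in Panc02.3 (0.28 ± 0.09, adjusted p = 0.0078), both lost without replicate 3 (adjusted p = 0.21 in LLC and 0.21 in Panc02.3). In all, 21 of 64 pairs were higher and 11 lower with IFNg. By line, the members called were 5 in B16.1, 2 in CT26.2, 4 in KPC.2, 5 in LLC, 4 in MC38.7, 6 in Panc02.3, 3 in Renca and 3 in YUMMER1.7. Among all genes the share called was 50.5% in B16.1, 4.02% in CT26.2, 20.0% in KPC.2, 29.3% in LLC, 28.3% in MC38.7, 53.0% in Panc02.3, 9.44% in Renca and 16.8% in YUMMER1.7.

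**Figure D4:**
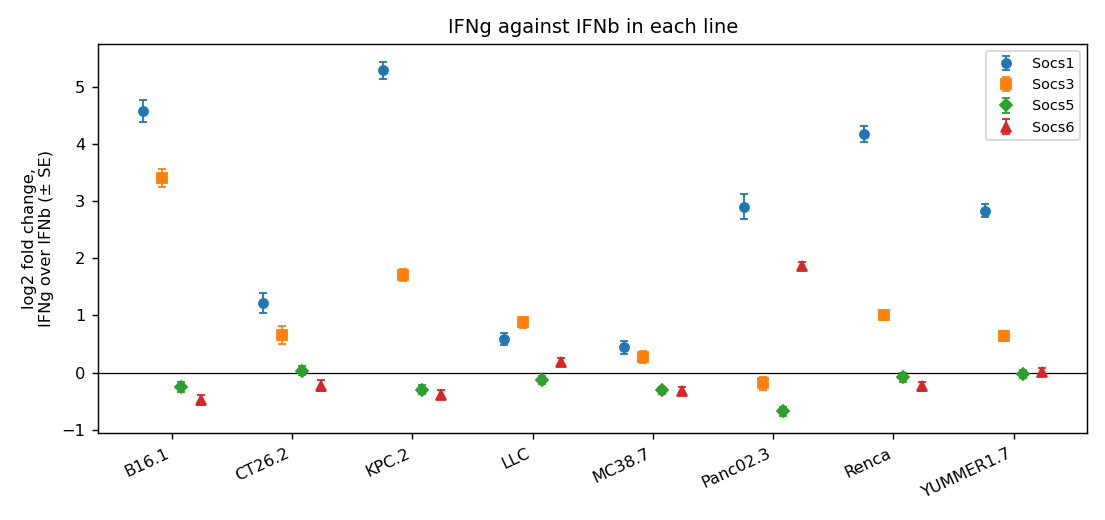
Log2 fold change of IFNg over IFNb (± SE) of Socs1, Socs3, Socs5 and Socs6 in each line, with 0 marking equal levels. All Socs1 points lie above 0, from 0.44 in MC38.7 to 5.28 in KPC.2, and the Panc02.3 points run in the order Socs1, Socs6, Socs3, Socs5.

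On the equally weighted mean of the 8 lines, the IFNg change was 3.67 ± 0.06 for Socs1 and 1.03 ± 0.04 for Socs3, and Socs5 fell by 0.11 ± 0.03 on the fitted scale (adjusted p = 0.00027). Socs2 and Cish, with 0.02 ± 0.10 and 0.26 ± 0.31, did not pass, nor did Socs4 and Socs7, and the Cish mean rests partly on the 2 lines near 0 counts. With IFNb, Socs1 had 0.92 ± 0.10 (adjusted p = 2.2e-11), Socs2 0.27 ± 0.08 (adjusted p = 0.0034) and Socs5 0.11 ± 0.03 (adjusted p = 0.001). The Socs2 mean came from 1 line that rose and 1 that fell, and was not called without replicate 3 (adjusted p = 0.21). The IFNg mean of Socs5 held 2 lines that fell, Panc02.3 and KPC.2, and 3 lines with changes above 0. It was not called without replicate 1 (adjusted p = 0.064). IFNg over IFNb had means of 2.75 ± 0.06 for Socs1, 1.05 ± 0.04 for Socs3, -0.22 ± 0.03 for Socs5 and -0.26 ± 0.08 for Socs2, the last not called without replicate 3 (adjusted p = 0.11). Thus 4 of 8 members were called on the mean with IFNg, 3 with IFNb and 4 between the cytokines, beside 42.0%, 30.3% and 36.6% of all genes. The SE of such a mean reflects replicate libraries and leaves out variation among lines. Being worked back from the F value, it can also be too small for large changes such as that of Socs1.

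For IFNg against NS, 6 of 8 members passed the F test for a difference between lines, with Cish (adjusted p = 0.053) and Socs7 (adjusted p = 0.054) just short of it, beside 69.2% of all genes. Both passed with total count scaling (adjusted p = 0.044 for Cish and 0.017 for Socs7). For IFNb against NS 7 of 8 passed, all but Cish, beside 48.2%, though Socs4, Socs6 and Socs7 did not pass in some runs with fewer libraries. Between the cytokines all 8 passed, Cish narrowly (adjusted p = 0.044, and 0.053 with total count scaling), beside 70.1%. Socs4 and Socs7 did not pass there without replicate 3, nor did Cish on leaving out any 1 replicate number. The Cish test includes CT26.2 and MC38.7, where Cish was near 0 counts. NS levels differed across lines for all 8, as for 96.5% of all genes. Panc02.3 departed from the mean of the other 7 lines in the IFNg response of Socs2 (1.93 ± 0.15), Socs3, Socs4, Socs5 (-0.67 ± 0.08) and Socs6, and in that of Socs7 (0.25 ± 0.10), a member that missed the F test. For Socs1 the IFNg departures were upward in B16.1 (3.45 ± 0.36), KPC.2 (2.86 ± 0.24) and Renca (1.24 ± 0.26), and downward in MC38.7 (-2.26 ± 0.17), CT26.2 (-2.12 ± 0.22), LLC (-1.999 ± 0.15) and YUMMER1.7 (-1.15 ± 0.14). Departures were called in 22.4% of all gene and line pairs for IFNg against NS and in 23.4% between the cytokines. These shares cover the 8 lines together. No such share is at hand for Panc02.3 alone, where 54.8% of all genes were called for IFNg against NS.

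Levels of different members can be compared once divided by the length of the longest coding transcript. In NS cells the median over the lines was 13.9 CPM per kb for Socs5, 12.3 for Socs3, 10.5 for Socs6, 6.37 for Socs7, 6.10 for Socs4, 5.20 for Socs2, 2.01 for Socs1 and 0.284 for Cish. With IFNg the median over the lines was 19.0 CPM per kb for Socs3 and 14.8 for Socs1, placing these 2 first, with Socs5 next at 13.5. They did not lead in every line. Socs6 was highest in Panc02.3, Socs7 in MC38.7 and Socs5 in CT26.2. The single highest value was Socs1 in KPC.2 with IFNg, at 115 CPM per kb, followed by Socs6 in Panc02.3 with IFNg at 56.8. This scaling uses 1 transcript per gene, and other isoforms would give other lengths.

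Other genes of the pathway were read, on the mean of the lines, from lists chosen with earlier results of these data known. On that mean 42.0% of all genes were called with IFNg and 30.3% with IFNb. The interferon target genes Irf1, Gbp2, Irf7, Isg15 and Ifit1 rose with both cytokines. Irf1, a transcription factor that acts on the mouse Socs1 promoter, changed by 3.80 ± 0.03 with IFNg and 0.76 ± 0.03 with IFNb. Gbp2 had 7.94 ± 0.04 with IFNg and 3.06 ± 0.05 with IFNb. The antiviral genes Irf7, Isg15 and Ifit1 were lower with IFNg than with IFNb, at -1.48 ± 0.03, -0.94 ± 0.04 and -0.99 ± 0.04 for IFNg over IFNb. The median of all genes was -0.04 with IFNg and -0.02 with IFNb.

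Of the 4 interferon receptor chains, 1 rose and 3 fell with IFNg (median -0.23). Ifnar2 rose by 0.65 ± 0.03, in 7 lines, while Ifngr1 (-0.27 ± 0.03) and Ifnar1 (-0.24 ± 0.02) fell. With IFNb 1 of the 4 fell, Ifnar1 (-0.15 ± 0.02). Among the 4 JAK kinases, 3 rose and 1 fell with IFNg (median 0.17), led by Jak2 (0.55 ± 0.03) and Jak3 (0.26 ± 0.05), with Tyk2 at -0.13 ± 0.04. With IFNb 1 rose, Jak2 (0.18 ± 0.03).

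Stat2, a subunit of the complex that reads ISRE elements, had 2.81 ± 0.04 with IFNg and 2.12 ± 0.04 with IFNb, and Stat3, the activator of Socs3 downstream of gp130, had 1.23 ± 0.02 and 0.13 ± 0.03. Panc02.3, the line without a Socs3 rise, averaged 103 CPM of Stat3 with IFNg and 86.0 CPM in NS cells, whereas B16.1 averaged 343 and 58.5 CPM. CT26.2, where Socs3 was called as a rise, averaged 104 and 50.7 CPM of Stat3. A link between the Stat3 level and the Socs3 change was not tested. Stat5a fell with IFNg (-0.37 ± 0.05), in 2 lines. These were Panc02.3, with 8.48 CPM with IFNg and 33.9 CPM in NS cells, and CT26.2, with 2.39 CPM with IFNg and 5.79 CPM in NS cells, and no change passed in the other 6 lines. Stat5b (-0.02 ± 0.03) and Stat6 (0.03 ± 0.02) did not pass.

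Among 11 other negative regulators tested, 2 rose and 4 fell with IFNg (median -0.06), and 2 rose and 3 fell with IFNb (median -0.05), beside 42.0% and 30.3% of all genes called. Usp18, which removes ISG15 and blocks the type I interferon receptor, changed by 3.21 ± 0.07 with IFNg and 4.84 ± 0.06 with IFNb, and had a mean of -1.63 ± 0.04 for IFNg over IFNb. Unlike that of Socs1, its direction between the cytokines was not the same in all lines, as it was lower with IFNg in 4 lines and higher in 3, B16.1, Panc02.3 and YUMMER1.7. In LLC it averaged 3.92 CPM with IFNg, 378 CPM with IFNb and 0.607 CPM in NS cells. In YUMMER1.7, where Socs1 did not rise with IFNb, it averaged 398, 229 and 246 CPM in that order. Pias3, an inhibitor of STAT3, fell with IFNg (-0.35 ± 0.03), and the phosphatase Ptpn6 was lower with IFNg than with IFNb (-0.44 ± 0.15). Ptpn1 (-0.04 ± 0.02) and Pias1 (-0.06 ± 0.03) did not pass with IFNg.

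Of 6 SOCS box ligase partners, 1 rose and 2 fell with IFNg (median -0.01), and 2 fell with IFNb (median -0.06), beside 42.0% and 30.3% of all genes called. The cullin Cul2 rose by 0.31 ± 0.02 with IFNg, and the RING subunits Rbx1 (-0.21 ± 0.03) and Rnf7 (-0.15 ± 0.03) fell, while Cul5 (-0.02 ± 0.03) and Eloc (-0.01 ± 0.02) did not pass.

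Ligands and receptors upstream of the other members were also read. Of 7 gp130 cytokines, 2 rose with IFNg (median 0.28), Lif by 1.03 ± 0.07 (in 6 lines) and Clcf1 by 0.86 ± 0.08 (up in 4 lines and down in 1, KPC.2), and 1 rose with IFNb (median 0.26), Lif by 0.65 ± 0.09. Both IFNg means rest partly on B16.1, where NS cells had 4 counts of Lif and 2 of Clcf1 over the group. There Lif averaged 3.90 CPM with IFNg and 0.159 CPM in NS cells, and Clcf1 4.84 CPM with IFNg and 0.0831 CPM in NS cells. Il11 (0.28 ± 0.14) and Cntf (0.24 ± 0.16) did not pass with IFNg. Of 6 gp130 and related receptors tested, 2 rose and 2 fell with IFNg (median -0.15). Osmr, the oncostatin M receptor, rose with IFNg in all 8 lines (1.38 ± 0.08 on the mean), while Lifr (-0.54 ± 0.16) and Il11ra1 (-0.16 ± 0.05) fell. With IFNb Osmr had 0.33 ± 0.10 and Il11ra1 -0.21 ± 0.05, the 1 that rose and the 1 that fell (median -0.10), and Il6ra (-0.16 ± 0.08) and Lepr (-0.06 ± 0.43) did not pass.

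Of 7 receptors that signal through STAT5, 1 rose and 1 fell with IFNg (median 0.17), and none was called with IFNb by edgeR, where 2 had an unadjusted p under 0.05 (median 0.21). Il2rg had 1.83 ± 0.51 with IFNg and Epor -0.76 ± 0.21, from low levels. Il2rg averaged 4.05 CPM with IFNg and 0.0347 CPM in NS cells of B16.1, and 2.17 and 0.432 CPM in YUMMER1.7, where edgeR called the Cish rise. Ghr (0.17 ± 0.22) did not pass. Of 9 receptor tyrosine kinase and insulin signalling genes tested, none rose, also at an unadjusted p under 0.05, and 5 fell with IFNg (median -0.26), and 2 fell with IFNb (median -0.03), beside 42.0% and 30.3% of all genes called. Erbb3 (-0.38 ± 0.14), Irs2 (-0.26 ± 0.09) and Met (-0.15 ± 0.04) fell with IFNg, and Egfr (-0.33 ± 0.26) and Insr (-0.06 ± 0.03) did not pass.

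The named genes whose response pattern was most like each member were read from Pearson's r over the 24 groups, after each line's own mean had been subtracted. Predicted loci without a gene name were left out of these, whereas the rank given for Stat3 counts all genes. These likenesses are a description, because a line's 3 groups share the subtracted mean and a few strong responses can set r. For Socs1 the nearest genes were Apol10b (r = 0.96), Il18bp (r = 0.95) and Samhd1 (r = 0.95), with Irf1 at 0.92. For Socs3 they were Psma5 (r = 0.94), Pomp (r = 0.92) and Sbno2 (r = 0.92), with Stat3 at rank 17 of 16146 genes at 0.90 and Socs1 at 0.79. For Socs6 they were Cdv3 (r = 0.97), Ccar1 (r = 0.96) and Dis3 (r = 0.96), and for Socs2 Zfp111 (r = 0.94), Epc2 (r = 0.90) and Ets2 (r = 0.90). For Socs5 they were Oaf (r = 0.93), Sema4c (r = 0.91) and Dnajc25 (r = 0.91), and for Socs4 Rhbdf2 (r = 0.89), Mdm4 (r = 0.89) and Khdc4 (r = 0.88). Socs7 was nearest to Pptc7 (r = 0.90), Slc7a3 (r = 0.87) and D1Ertd622e (r = 0.85). Cish had the weakest likeness, to Vrk2 (r = 0.77), Klhl32 (r = 0.71) and Terf1 (r = 0.69). Socs2 and Socs5 had r of -0.02 and -0.46 with Socs1.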

How the data were processed

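RNA was sequenced in 70 libraries of 8 cell lines. The deposited table holds estimated counts per gene and library, not normalised by the authors, and all of them were whole numbers. Per the submitters' processing notes, the tools were Trimmomatic 0.36 and kallisto, with mm10 as the build. The kallisto version and the way transcripts were summed to genes are not given in the sources used here. Per the labels' protocols, the library kit was directional.

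Genes were kept by edgeR's filterByExpr (16147 of 35197) and scaled by TMM. Quasi-likelihood tests in edgeR 4.0.16 (R 4.3.3) used 1 model with 24 groups, so all lines shared the estimate of spread. Comparisons were made within each line, on the average of the 8 lines with equal weights, and for differences between lines. Benjamini-Hochberg adjustment ran over all genes of each comparison, with a threshold of 0.05. The SE is the size of the log2 fold change over the root of its F value. It is not a direct estimate, and can be too small for large changes that rest on few counts. A group with at most 3 counts in all was taken as at the floor. The procedure was tested on simulated data. Replicate libraries differed by more than counting noise in all 68 pairs, so none was treated as a duplicate.

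The members were taken by symbol. From each pathway list, the text names at most 3 called genes with the largest changes and at most 2 others, and a few further genes and single-line levels were chosen after their values were seen. Members and lists were chosen with earlier results of these data known. A gene of these lists is not reported here, and no count is given for the lists that hold it. Alternatives used DESeq2 size factors, upper quartile or total count scaling, DESeq2 1.42.0, limma-voom (limma 3.58.1), no filter, each line alone, a replicate block, and fewer libraries.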

Additional observations from a re-analysis of the deposited data

Results flagged for a closer look

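The response of 8 family members was tested for a difference between the 8 lines, and the adjusted p-values past the threshold (edgeR's quasi-likelihood F test) are given here because the lines responded unequally. For IFNg against NS they were 1.2e-28 for Socs1, 6e-28 for Socs6, 7.3e-21 for Socs3, 1.4e-14 for Socs2, 1.8e-10 for Socs5 and 0.00049 for Socs4. For IFNb against NS they were 7.6e-09 for Socs3, 7.7e-09 for Socs2, 1e-08 for Socs1, 9.2e-06 for Socs5, 0.00091 for Socs7, 0.0066 for Socs6 and 0.0088 for Socs4. For IFNg against IFNb they were 3.6e-32 for Socs1, 2.3e-29 for Socs6, 1.5e-22 for Socs3, 1.4e-21 for Socs2, 4.1e-07 for Socs5, 6e-04 for Socs7, 0.0023 for Socs4 and 0.044 for Cish. The Cish call was lost on leaving out any 1 replicate number (adjusted p = 0.33, 0.13 and 0.099). Some other calls were lost on leaving out 1 replicate number. For IFNb against NS, Socs6 lost it whichever number it was (adjusted p = 0.15, 0.073 and 0.055). Socs4 lost it without replicate 2 or 3 (adjusted p = 0.11 and 0.14), and Socs7 without replicate 1 or 3 (adjusted p = 0.073 and 0.084). Socs4 also lost its IFNg against NS call without replicate 2. For IFNg against IFNb, Socs4 and Socs7 lost theirs without replicate 3. The lines also differ in tissue and strain, and these cannot be told apart from the line.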

How the results depend on the processing

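No single result reversed under any alternative run. Of 3036 alternative values of 240 single results, 2910 kept their call, 95 lost it and 31 gained one. Total count scaling raised the members called on the mean of the lines with IFNb to 5, against 3. It moved the median of all genes by -0.10 in KPC.2 with IFNg against NS, and the Socs1 and Socs3 calls there kept their direction. Leaving out all libraries of 1 replicate number gave 4 to 5 members with a difference between lines for IFNb against NS, against 7, and 5 to 7 for IFNg against IFNb, against 8. The lowest count of each came without replicate 3. These runs left 1 library in unstimulated Renca without replicate 2 or 3, and in LLC with IFNg without replicate 1 or 3. Member and line pairs called then numbered 22 to 26 for IFNg against NS, 11 to 13 for IFNb against NS and 23 to 28 for IFNg against IFNb, against 27, 15 and 32. DESeq2 gave 28, 16 and 32, and was not run for differences between lines. Same-numbered libraries of a line did not deviate together (correlations of -0.17 to 0.10 over 68 pairs, 1 of them over 0.1), so the numbers were not taken as pairs. With a replicate block within each line, 26, 13 and 29 pairs were called, and with a block shared over lines 26, 15 and 31. Low counts limit Cish in most lines, Socs2 in B16.1, and Socs1 in unstimulated B16.1.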
